A study of Mus musculus with 7 samples.

Results

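The data concern 7 subunits of the GABA-A receptor in the cerebral cortex of mice without the creatine (Cr) transporter: *Gabra2*, *Gabra3*, *Gabra4*, *Gabra5*, *Gabrb1*, *Gabrb2* and *Gabrd*. They were taken by their gene symbols from a table of 24346 genes, and all 7 were present. Bulk RNA-seq was made from the cerebral cortex of 4 CrT-/y and 3 CrT+/y male littermates on a C57BL/6J background, killed at postnatal day 100, with 1 library per animal. CrT-/y males are hemizygous for a deletion of exons 5 to 7 of *Slc6a8*, the X-linked gene of the Cr transporter, in all their cells, and CrT+/y males carry the intact gene. No animal received a treatment according to the labels. The animals are named below by genotype and by the number that the labels give them (0 to 3 in CrT-/y, 1 to 3 in CrT+/y).

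GABA-A receptors are chloride channels built from 5 subunits around a central pore, and they carry most of the fast inhibition in the cortex. GABA binds at the interface of α and β subunits, and the type of α subunit sets where the receptor sits, how fast it closes and which drugs act on it. Receptors that contain the δ subunit, often together with the α subunit encoded by *Gabra4*, lie outside synapses and respond to low ambient GABA, while the α subunit encoded by *Gabra5* is known for tonic inhibition in pyramidal cells. The genes lie in clusters, so that neighbours on a chromosome often encode subunits of different types.

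Values are FPKM, that is, fragments scaled to the length of the transcript and to the mapped reads of the library, so that levels can be set side by side between genes. Comparisons between animals also depended on how the libraries were scaled, as given below. *Slc6a8* itself was at 12.4, 14.9, 14.7 and 15.7 FPKM in CrT-/y animals 0 to 3 and at 32.3, 29.6 and 28.05 FPKM in CrT+/y animals 1 to 3, a log2 difference of -1.05 (limma, adjusted p = 0.00238). The table gives 1 value for the whole gene, so it holds no separate value for the deleted exons. FPKM hold no read counts, and the relative depth of the libraries, estimated from 2608 weakly expressed genes, ran from 0.877 to 1.248 times that of CrT-/y animal 0. The summed FPKM of all genes ranged from 382949 to 390299 in the CrT-/y group and from 385465 to 403414 in the CrT+/y group, with CrT+/y animals 1 and 3 the highest. The cortex was dissected as tissue, so fewer cells of a type and less RNA per cell cannot be told apart. As to the labelled tissue, the summed level of 12 markers of cortical excitatory neurons was 2692 to 2933 FPKM in CrT-/y and 2896 to 3645 FPKM in CrT+/y animals.

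None of the 7 subunits passed the threshold of an adjusted p of 0.1 in limma, against 10.1% of the 12988 genes tested. At an unadjusted p under 0.05 the count was 3 of 7, against 25.0% of all genes tested (3252 genes). These 3 were *Gabrb2*, *Gabra3* and *Gabrb1*, each with a lower mean in CrT-/y cortex and each with every CrT-/y animal below every CrT+/y animal. Over all genes tested, the groups did not overlap for 21.6%. The estimate was below 0 for 4 and above 0 for 3 subunits, and the median log2 difference was -0.023, beside -0.0335 for all genes tested, 58.2% of which had an estimate below 0. Here log2 differences are CrT-/y minus CrT+/y on the scale of log2(FPKM + 0.1).

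**Figure D1:**
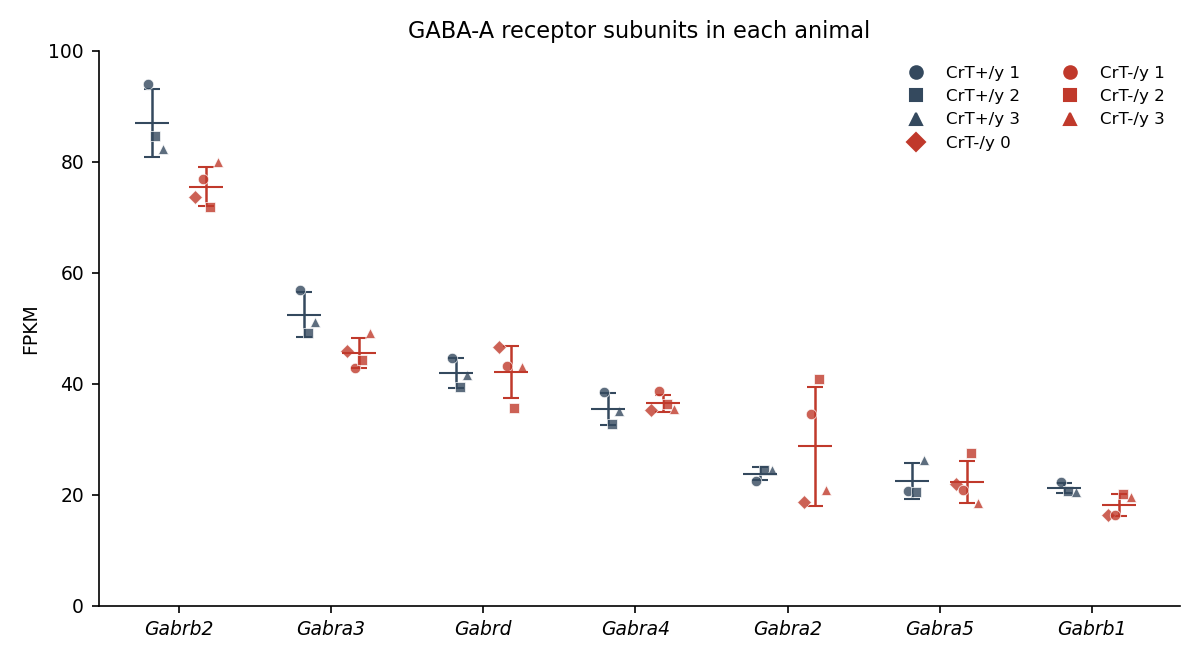
Level in FPKM (linear axis from 0) of each subunit in each animal, ordered by mean level, with CrT+/y animals in dark blue and CrT-/y animals in red. Symbols mark the animal's number, horizontal bars the group mean and error bars the SD (n = 3 and 4); *Gabrb2* stands above the others in all animals, and the CrT-/y animals of *Gabra2* spread from 18.7 to 40.9 FPKM.

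The β subunits form part of the GABA binding site and are needed for the receptor to assemble. *Gabrb2* (ENSMUSG00000007653.12, chr11:42419757-42629028, plus strand, GRCm38) was at 73.6, 76.9, 71.8 and 79.9 FPKM in CrT-/y animals 0 to 3 and at 93.9, 84.6 and 82.3 FPKM in CrT+/y animals 1 to 3. The groups did not overlap, although CrT-/y animal 3 and CrT+/y animal 3 lay close together and CrT+/y animal 1 was the highest of all. CrT-/y animals averaged 75.5 ± 3.59 FPKM (SD, n = 4), CrT+/y animals 86.9 ± 6.17 FPKM (SD, n = 3), and CrT-/y cortex thus held 86.9% of the CrT+/y level. The log2 difference was -0.20 (SE 0.064, 95% interval -0.35 to -0.057), with an adjusted p of 0.104 in limma, just outside the threshold. The exact permutation test over the 35 splits of the animals gave p = 0.0286 (two-sided), the smallest that 4 against 3 animals allow.

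*Gabrb1* (ENSMUSG00000029212.11, chr5:71658113-72149037, plus strand) had the lowest level of the 7 subunits. It was at 16.4, 16.4, 20.1 and 19.5 FPKM in CrT-/y animals 0 to 3 and at 22.3, 20.7 and 20.5 FPKM in CrT+/y animals 1 to 3. CrT-/y animals 0 and 1 lay well below the other 5 animals, whereas CrT-/y animals 2 and 3 lay just under the CrT+/y range. Means were 18.1 ± 2.01 FPKM for CrT-/y (SD, n = 4) and 21.2 ± 0.982 FPKM for CrT+/y (SD, n = 3), and the log2 difference was -0.23 (SE 0.087, 95% interval -0.43 to -0.036; limma, adjusted p = 0.146). The exact permutation test gave p = 0.0857 (two-sided).

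*Gabra3* (ENSMUSG00000031343.13, chrX:72432681-72656848, minus strand) encodes an α subunit that is prominent in the developing cortex. It was at 45.9, 42.9, 44.2 and 49.1 FPKM in CrT-/y animals 0 to 3 and at 57.0, 49.2 and 51.2 FPKM in CrT+/y animals 1 to 3. The groups touched, since CrT-/y animal 3 lay directly under CrT+/y animal 2. Means were 45.5 ± 2.68 FPKM for CrT-/y (SD, n = 4) and 52.5 ± 4.02 FPKM for CrT+/y (SD, n = 3), a log2 difference of -0.20 (SE 0.069, 95% interval -0.36 to -0.048; limma, adjusted p = 0.119; exact permutation p = 0.0571, two-sided). *Gabra3* lies 1.02 Mb from *Slc6a8* on the X chromosome, and whether that position has a part in its value was not tested.

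The separation of these 3 genes moved with the scale. When each animal was divided by its summed FPKM, a scale added after those sums had been seen, the groups still did not overlap for *Gabra3* (111.8 to 126.8 against 127.5 to 141.2 on a scale of 1000000 summed FPKM per animal). For *Gabrb2* they overlapped (187.5 to 206.5 against 204.9 to 232.8), and so they did for *Gabrb1* (41.9 to 52.6 against 51.1 to 55.3). On that scale 20.0% of all genes tested had groups that did not overlap. The log2 differences became -0.16 for *Gabra3*, -0.16 for *Gabrb2* and -0.19 for *Gabrb1*, with adjusted p-values of 0.16, 0.158 and 0.226 in limma.

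*Gabra2* (ENSMUSG00000000560.9, chr5:70957597-71095849, minus strand) encodes an α subunit that is frequent at synapses on the axon initial segment of pyramidal cells. It was at 18.7, 34.5, 40.9 and 20.8 FPKM in CrT-/y animals 0 to 3 and at 22.4, 24.4 and 24.5 FPKM in CrT+/y animals 1 to 3. CrT-/y animals 0 and 3 lay below every CrT+/y animal and CrT-/y animals 1 and 2 above every one, with no CrT-/y animal inside the narrow CrT+/y range. The highest and lowest CrT-/y animals differed 2.18-fold, the CrT+/y animals 1.09-fold. Means were 28.7 ± 10.7 FPKM for CrT-/y (SD, n = 4) and 23.8 ± 1.19 FPKM for CrT+/y (SD, n = 3), and the log2 difference was 0.20 (SE 0.24, 95% interval -0.35 to 0.74; limma, adjusted p = 0.65; exact permutation p = 0.543, two-sided). The data therefore leave room for a change of *Gabra2* in either direction.

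The spread of *Gabra2* among CrT-/y animals was set against that of other genes as a description. The SD of its log2 values was 0.547 in CrT-/y and 0.073 in CrT+/y animals. Among the 9498 genes whose mean reached 5 FPKM, the SD in CrT-/y animals placed *Gabra2* at rank 43 from the highest. Within 10 Mb on either side of the gene on chromosome 5, 53 genes reached that level and *Gabra2* ranked 1 of them. The gene with the next widest spread, *Hopx*, differed 1.51-fold between the highest and lowest CrT-/y animal, and the median of the 53 genes was 1.10-fold, close to the 1.11-fold of all genes at that level. The spread was thus not shared by its neighbours: *Gabra4*, which lies 473.9 kb away, differed 1.10-fold and *Gabrb1* 1.23-fold among the CrT-/y animals.

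**Figure D2:**
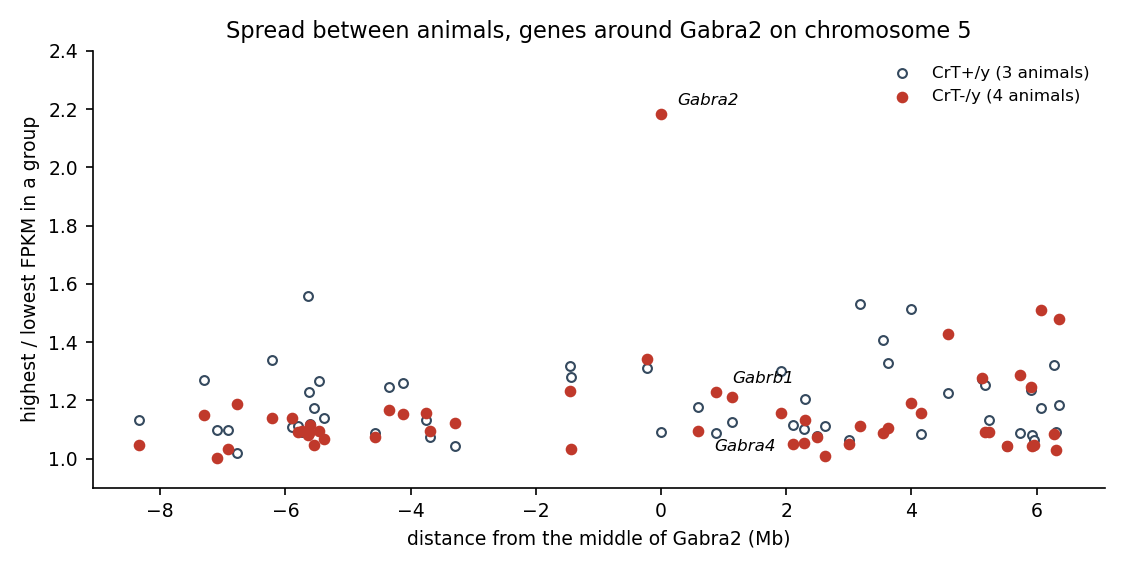
Highest over lowest FPKM within each group (vertical axis) for the 53 genes of at least 5 FPKM within 10 Mb of *Gabra2*, against the distance from the middle of *Gabra2* in Mb. Filled red points are the 4 CrT-/y animals and open points the 3 CrT+/y animals; *Gabra2* stands at 2.18 in CrT-/y and at 1.09 in CrT+/y animals, and the next red point is at 1.51.

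*Gabra4* (ENSMUSG00000029211.11, chr5:71569749-71658308, minus strand) and *Gabrb1* stand head to head on opposite strands, and their exons share 46 bases, so that reads from those bases could be given to either gene if strand was not used in counting. *Gabra4* was at 35.3, 38.7, 36.3 and 35.5 FPKM in CrT-/y animals 0 to 3 and at 38.5, 32.7 and 35.1 FPKM in CrT+/y animals 1 to 3. The CrT-/y values lay inside or beside the CrT+/y range, with means of 36.4 ± 1.58 (SD, n = 4) and 35.5 ± 2.92 FPKM (SD, n = 3). The log2 difference was 0.042 (SE 0.067, 95% interval -0.11 to 0.19; limma, adjusted p = 0.73). The ratio of *Gabrb1* to *Gabra4* within an animal, chosen after the values had been seen and given without a test, was 0.423 to 0.555 in CrT-/y and 0.579 to 0.634 in CrT+/y animals.

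*Gabrd* (ENSMUSG00000029054.8, chr4:155384980-155398112, minus strand) encodes the δ subunit. It was at 46.6, 43.2, 35.6 and 43.0 FPKM in CrT-/y animals 0 to 3 and at 44.7, 39.4 and 41.5 FPKM in CrT+/y animals 1 to 3. The CrT-/y animals included both the highest and the lowest value, and means were 42.1 ± 4.63 FPKM for CrT-/y (SD, n = 4) and 41.9 ± 2.69 FPKM for CrT+/y (SD, n = 3). The log2 difference was 0.0030 (SE 0.090; limma, adjusted p = 0.987). Its 95% interval ran from -0.20 to 0.21, so changes of the size estimated for *Gabrb2* lie at its edge.

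*Gabra5* (ENSMUSG00000055078.7, chr7:57407672-57510059, minus strand) was at 21.96, 20.9, 27.5 and 18.5 FPKM in CrT-/y animals 0 to 3 and at 20.7, 20.5 and 26.3 FPKM in CrT+/y animals 1 to 3. CrT-/y animal 2 and CrT+/y animal 3 were the highest, and the groups overlapped over most of their range. Means were 22.2 ± 3.79 FPKM for CrT-/y (SD, n = 4) and 22.5 ± 3.27 FPKM for CrT+/y (SD, n = 3), with a log2 difference of -0.023 (SE 0.134, 95% interval -0.32 to 0.28; limma, adjusted p = 0.93). It shares 148 exon bases with *Gm9962*, an antisense gene at a mean of 1.58 FPKM, whose reads cannot be told apart from those of *Gabra5* there without strand.

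**Figure D3:**
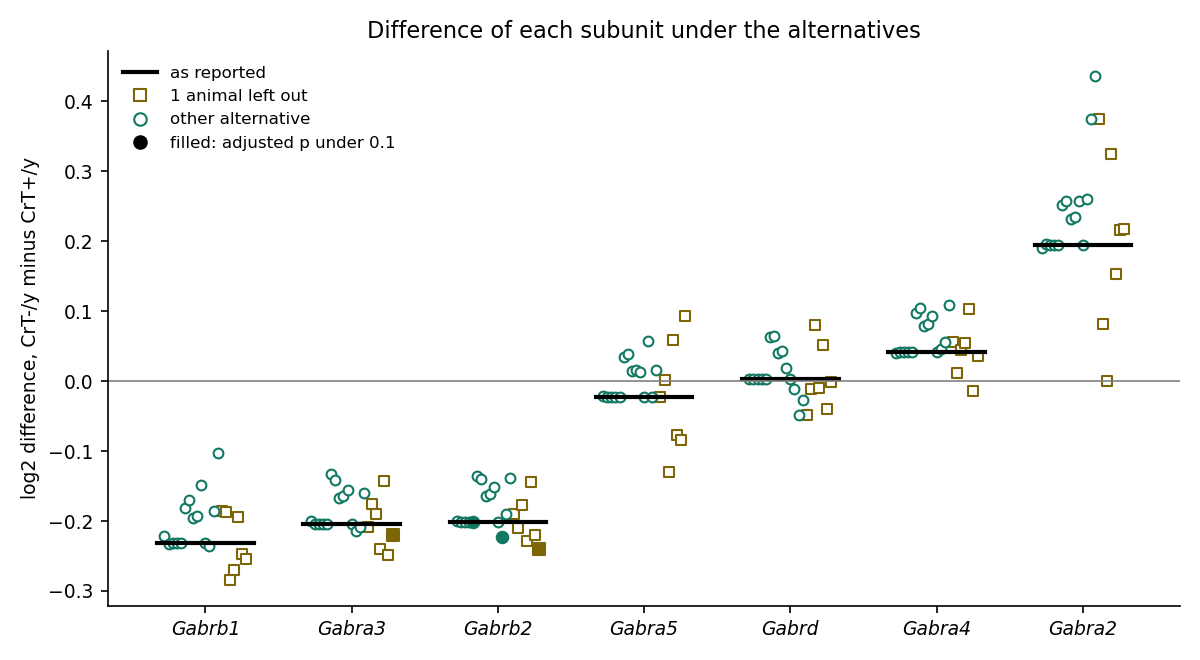
Log2 difference of each subunit, CrT-/y minus CrT+/y, in the analysis as reported (black bar) and under 21 alternatives, with squares for 1 animal left out and circles for the other alternatives. Filled symbols have an adjusted p under 0.1; *Gabrb1*, *Gabra3* and *Gabrb2* stay below 0 throughout, and the filled symbols belong to *Gabrb2* (3) and *Gabra3* (1).

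Under 21 alternatives of scaling, filter, pseudocount, model and animals, the estimates of *Gabra3*, *Gabrb1* and *Gabrb2* stayed below 0 in all 21. Those of *Gabrb2* ran from -0.24 to -0.14 and those of *Gabrb1* from -0.28 to -0.10. *Gabrb2* passed the threshold in 3 of 21, namely among genes of at least 5 FPKM (adjusted p = 0.0918), with array weights (0.0763) and without CrT+/y animal 3 (0.0373; all limma). *Gabra3* passed in 1, without CrT+/y animal 3 (limma, adjusted p = 0.0818). These settings also changed the calls over all genes, of which 941 of 12988 were called lower as reported. Among genes of at least 5 FPKM it was 1052 of 9498. With array weights it was 1295 of 12988, and without CrT+/y animal 3 it was 2394 of 12997. *Gabra2* and *Gabra4* kept their direction in 20 of 21, *Gabrd* in 13 and *Gabra5* in 11.

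RefSeq gives the bases around the transcription start for 6 of the 7 subunits, matched by symbol (GRCm38.p6, 250 bases before to 50 after each start). These are shown for the 3 subunits whose groups stood apart, for *Gabra2* with its spread, and for *Gabra4* as the head-to-head neighbour of *Gabrb1*. The *Gabrb1* window nearest to *Gabra4*, chr5:71657671-71657970, is not shown, and the one shown lies further inside *Gabrb1*. For *Gabrb2*, with 3 windows, and for *Gabra3* and *Gabrb1*, with 2 windows each, the one whose bases after the start were found in a GENCODE transcript is shown. Capitals mark the GC box GGGCGG, the short CRE motif TGACG and the TATA box TATAAA wherever they occur on either strand. The windows are *Gabra2* chr5:71095800-71096099 (minus strand), *Gabra3* chrX:72656758-72657057 (minus), *Gabra4* chr5:71658259-71658558 (minus), *Gabrb1* chr5:71699682-71699981 (plus) and *Gabrb2* chr11:42420951-42421250 (plus), each read 5′ to 3′ along the strand of its gene.
Gabra2: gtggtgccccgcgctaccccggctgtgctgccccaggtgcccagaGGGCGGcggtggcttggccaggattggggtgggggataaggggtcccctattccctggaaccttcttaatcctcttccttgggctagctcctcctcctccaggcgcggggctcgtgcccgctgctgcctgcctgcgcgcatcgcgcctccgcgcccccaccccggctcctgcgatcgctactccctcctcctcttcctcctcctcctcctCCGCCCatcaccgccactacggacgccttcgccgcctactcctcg
Gabra3: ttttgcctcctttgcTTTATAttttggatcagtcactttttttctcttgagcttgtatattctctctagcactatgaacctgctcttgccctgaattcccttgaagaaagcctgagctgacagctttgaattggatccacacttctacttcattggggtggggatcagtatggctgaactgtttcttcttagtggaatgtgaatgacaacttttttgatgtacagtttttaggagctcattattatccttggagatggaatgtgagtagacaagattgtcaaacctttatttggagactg
Gabra4: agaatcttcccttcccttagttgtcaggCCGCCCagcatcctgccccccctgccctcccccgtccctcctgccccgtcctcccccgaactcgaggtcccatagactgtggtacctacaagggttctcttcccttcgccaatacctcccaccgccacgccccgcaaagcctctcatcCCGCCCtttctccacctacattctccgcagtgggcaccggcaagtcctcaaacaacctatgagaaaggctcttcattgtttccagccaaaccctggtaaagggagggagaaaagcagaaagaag
Gabrb1: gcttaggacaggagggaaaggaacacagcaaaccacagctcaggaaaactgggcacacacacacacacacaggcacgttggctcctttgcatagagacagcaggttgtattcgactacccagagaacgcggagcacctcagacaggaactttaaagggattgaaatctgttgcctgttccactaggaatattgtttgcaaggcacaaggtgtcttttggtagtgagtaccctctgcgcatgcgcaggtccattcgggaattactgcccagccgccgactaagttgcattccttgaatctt
Gabrb2: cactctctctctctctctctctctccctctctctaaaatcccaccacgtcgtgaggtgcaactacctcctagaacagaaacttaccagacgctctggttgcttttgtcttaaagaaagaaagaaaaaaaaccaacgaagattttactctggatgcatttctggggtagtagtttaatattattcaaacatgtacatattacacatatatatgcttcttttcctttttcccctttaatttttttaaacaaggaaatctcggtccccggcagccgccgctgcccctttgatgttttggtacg

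The *Gabra2* window was the richest in G and C (70%), and the *Gabra3* window the poorest of these 5 (39.3%). GC boxes were found 2 times each for *Gabra2* and *Gabra4*, and 35.7% of all 32851 windows held at least 1. The TATA box was found for *Gabra3* (13.6% of all windows), and the short CRE motif in none of the printed windows (20.8% of all windows). The printed windows of *Gabrb1* and *Gabrb2* held no motif of this search. Of the windows not printed, 1 of *Gabrb2* held a GC box, a short CRE motif and a TATA box, and that of *Gabra3*, which overlaps the printed one, the same TATA box. The full CRE TGACGTCA (1.79% of all windows) and the EGR site GCGTGGGCG (0.612%) were in none of the windows of the 6 subunits. A full CRE contains the short motif on both strands.

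Within the cortex the order of the mean levels over the 7 animals was *Gabrb2* (80.4 FPKM), *Gabra3* (48.5), *Gabrd* (42.0), *Gabra4* (36.0), *Gabra2* (26.6), *Gabra5* (22.3) and *Gabrb1* (19.4). *Gabrb2* exceeded *Gabra3* in all 7 animals, by 0.73 ± 0.060 on the log2 scale (SD, n = 7), and their ranges did not overlap. The ranges of every other pair of neighbours overlapped, and the order held in 5 of 7 animals for *Gabra3* over *Gabrd*, in 6 for *Gabrd* over *Gabra4*, in 6 for *Gabra4* over *Gabra2*, in 5 for *Gabra2* over *Gabra5* and in 4 for *Gabra5* over *Gabrb1*. Within an animal, the mean log2 ratio was 0.21 ± 0.16 for *Gabra3* to *Gabrd*, 0.22 ± 0.13 for *Gabrd* to *Gabra4* and 0.49 ± 0.39 for *Gabra4* to *Gabra2* (SD, n = 7). It was smaller than its SD for the pairs *Gabra2* and *Gabra5* (0.21 ± 0.34) and *Gabra5* and *Gabrb1* (0.20 ± 0.25). The summed level of the 7 subunits was 268.6 ± 8.0 FPKM in CrT-/y (SD, n = 4; 258.5 to 276.4) and 284.2 ± 14.2 FPKM in CrT+/y animals (SD, n = 3; 271.6 to 299.6).

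Shares within an animal do not depend on how the libraries were scaled. Among the 4 α subunits considered here, which leaves out the other α subunits of the table, *Gabra2* took 15.4%, 25.2%, 27.5% and 16.8% in CrT-/y animals 0 to 3 and 16.2%, 19.3% and 17.9% in CrT+/y animals 1 to 3. CrT-/y animals 1 and 2 were above all others and CrT-/y animal 0 was the lowest, so the groups overlapped (21.2 ± 6.03% and 17.8 ± 1.55%, SD, n = 4 and 3; exact permutation p = 0.4, two-sided). The share of *Gabra3* was 34.6 ± 4.82% and 39.1 ± 1.88% (exact permutation p = 0.257), that of *Gabra4* 27.6 ± 2.15% and 26.4 ± 1.22% (exact permutation p = 0.457), and that of *Gabra5* 16.7 ± 1.82% and 16.7 ± 2.18% (exact permutation p = 1). The β subunits kept a log2 ratio of *Gabrb1* to *Gabrb2* of -2.07 ± 0.175 and -2.03 ± 0.035 (exact permutation p = 0.857), and the log2 ratio of *Gabrd* to *Gabra4* was 0.20 ± 0.18 and 0.24 ± 0.026 (exact permutation p = 0.743). After adjustment over these 6 tests the p-values were 0.914 to 1.

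**Figure D4:**
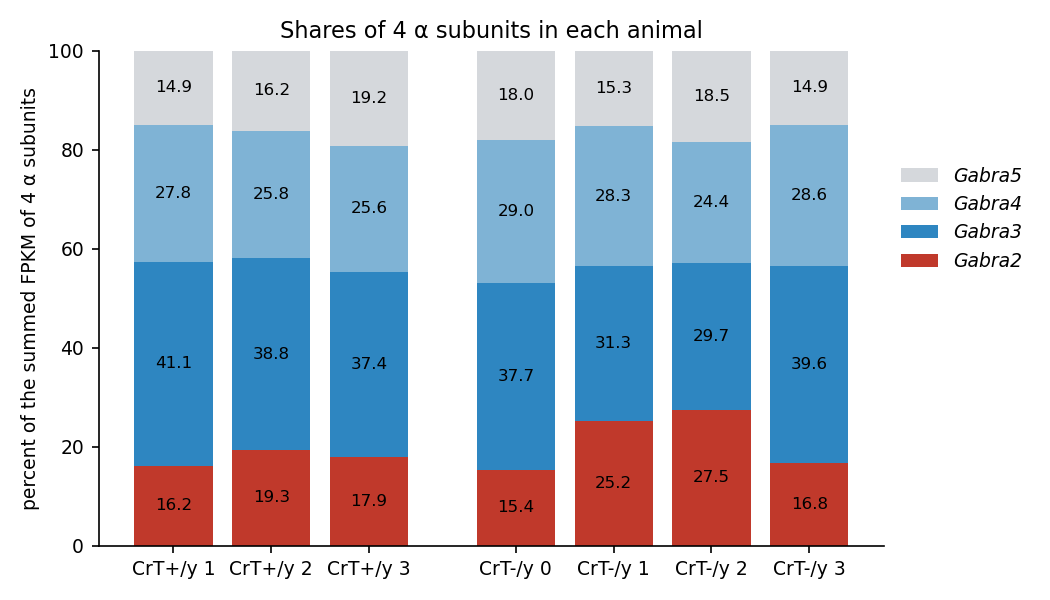
Share of each of 4 α subunits in their summed FPKM (percent, stacked to 100) in the 3 CrT+/y animals (left) and the 4 CrT-/y animals (right), with the share printed in each segment. *Gabra2* (red) takes 25.2% and 27.5% in CrT-/y animals 1 and 2 and 15.4% to 19.3% in the other 5 animals.

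The table holds 12 further GABA-A receptor subunits, given here as a group. Of these, 5 reached a mean of 1 FPKM, at 5.04 to 157.2 FPKM, and none passed the threshold (limma, smallest adjusted p = 0.124), with 1 at an unadjusted p under 0.05. The estimate was below 0 for 4 of the 5 and above 0 for 1, from -0.23 to 0.050 on the log2 scale. The other 7 stayed at or below 0.782 FPKM in every animal, and 1 of them was listed at 0 in all animals. The 7 subunits described above made up 44.7% to 48.4% of the summed FPKM of all 19 subunits in the CrT-/y group and 45.1% to 46.1% in the CrT+/y group.

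For each subunit, the genes tested whose log2 values deviated most alike over the 7 animals were found by the root mean square (RMS) of the difference of the centred profiles, a description without a test. *Gabra2* was nearest to *Zfp189* (RMS 0.117), *Plekhf1* (0.147) and *Casp1* (0.147). All of these were weakly expressed, and *Zfp189* was at 3.56 and 4.08 FPKM in CrT-/y animals 1 and 2 and at 1.81 to 2.65 FPKM in the other 5 animals. *Gabrb2* was nearest to *Dhdds* (0.021), *Eif5a2* (0.026) and *Rab11fip4* (0.026), and *Gabra3* to *Adcy2* (0.023), *Pxmp4* (0.026) and *Ryr2* (0.030). *Gabrb1* was nearest to *Lhx6* (0.048), *Rp9* (0.053) and *Otud1* (0.056), whereas *Gabra4* was nearest to *Ccsap* (0.019), *Sugp1* (0.023) and *Rabl3* (0.026). For *Gabra5* these were *Rspo2* (0.055), *Pkmyt1* (0.073) and *Phf5a* (0.077), and for *Gabrd* *Crcp* (0.039), *Kcnj2* (0.045) and *Plcd1* (0.049).

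Of 24 genes tested for assembly, trafficking and anchoring of GABA-A receptors, 4 fell and none rose (limma, adjusted p under 0.1), with a median log2 difference of -0.085. This count depended on the scaling. Quantile normalization, upper quartile scaling and equal summed FPKM each gave 1 lower and 1 higher gene, and median centring and the length correction each gave 2 lower and 1 higher. The higher gene under quantile normalization was *Nlgn2*, which encodes an adhesion protein of inhibitory synapses (log2 difference 0.21; limma, adjusted p = 0.0498; as reported 0.14, adjusted p = 0.109), named after its values were seen. Over all genes tested, 7.25% fell and 2.90% rose. *Plcl1* and *Plcl2* encode the PRIP proteins, which bind the receptor-associated protein GABARAP and phosphatases and take part in receptor trafficking. *Plcl1* was at 8.07 ± 0.515 FPKM (SD, n = 4) and 10.8 ± 0.936 FPKM (SD, n = 3), a log2 difference of -0.41 (limma, adjusted p = 0.038), and *Plcl2* at 20.1 ± 0.314 and 24.5 ± 2.43 FPKM, a difference of -0.28 (adjusted p = 0.061). *Ubqln1*, whose product stabilises intracellular receptors, fell by 0.18 on the log2 scale (64.5 ± 2.04 against 73.1 ± 1.02 FPKM; limma, adjusted p = 0.072). *Iqsec3*, an exchange factor at inhibitory synapses that binds gephyrin, fell by 0.18 as well (34.5 ± 0.658 against 39.1 ± 1.90 FPKM; limma, adjusted p = 0.088). Neither of these genes passed under any of the 5 other scalings, where *Ubqln1* was at -0.14 to -0.11 (limma, adjusted p = 0.125 to 0.18) and *Iqsec3* at -0.14 to -0.11 (limma, adjusted p = 0.131 to 0.246). *Plcl1* passed under all 5 and *Plcl2* under 2.

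Of 8 genes tested for synthesis, packaging, uptake and breakdown, 2 rose and none fell, with a median of 0.072. Over all genes tested, 2.90% rose. *Gad1*, which makes GABA from glutamate, was at 131 ± 4.63 FPKM in CrT-/y (SD, n = 4) and 111 ± 11.6 FPKM in CrT+/y animals (SD, n = 3), a log2 difference of 0.24 (limma, adjusted p = 0.097). *Slc6a13*, a GABA transporter of the meninges and vessels, was at 6.97 ± 1.40 and 4.88 ± 0.618 FPKM, a difference of 0.49 (limma, adjusted p = 0.087). The third by p-value was *Slc32a1*, the vesicular GABA transporter, at 53.0 ± 4.24 and 47.0 ± 3.32 FPKM (0.17; limma, adjusted p = 0.20), which did not pass.

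Of 15 genes tested for the chloride gradient and GABA-B receptors, 4 fell and none rose, with a median of -0.14. Over all genes tested, 7.25% fell. *Car2*, a carbonic anhydrase, was at 68.9 ± 5.92 FPKM in CrT-/y (SD, n = 4) and 93.2 ± 8.24 FPKM in CrT+/y animals (SD, n = 3), a log2 difference of -0.43 (limma, adjusted p = 0.036). *Stk39* and *Wnk3* encode kinases that regulate chloride cotransporters, and they fell by 0.29 (25.1 ± 0.668 against 30.7 ± 2.41 FPKM; limma, adjusted p = 0.049) and by 0.25 on the log2 scale (5.75 ± 0.348 against 6.85 ± 0.327 FPKM; limma, adjusted p = 0.097). *Kcnj6*, a subunit of the potassium channels that GABA-B receptors open, fell by 0.34 (13.9 ± 1.43 against 17.7 ± 0.892 FPKM; limma, adjusted p = 0.058). *Car2*, *Stk39* and *Kcnj6* passed under the 5 other scalings too, and *Wnk3* under none of them (-0.23 to -0.19; limma, adjusted p = 0.115 to 0.192). Together these lists, with the other receptor subunits counted along, gave 10 calls. The number was 0 without CrT-/y animal 1, 1 without CrT-/y animal 2 and 2 without CrT+/y animal 1. It was 3 without CrT-/y animal 0, 4 without CrT-/y animal 3 and 7 without CrT+/y animal 2. Without CrT+/y animal 3 it was 19, of which 1 was among the other subunits. The calls over all genes moved as well. They were 941 lower and 377 higher as reported, 53 and 11 without CrT-/y animal 1, and 2394 and 1342 without CrT+/y animal 3.

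**Figure D5:**
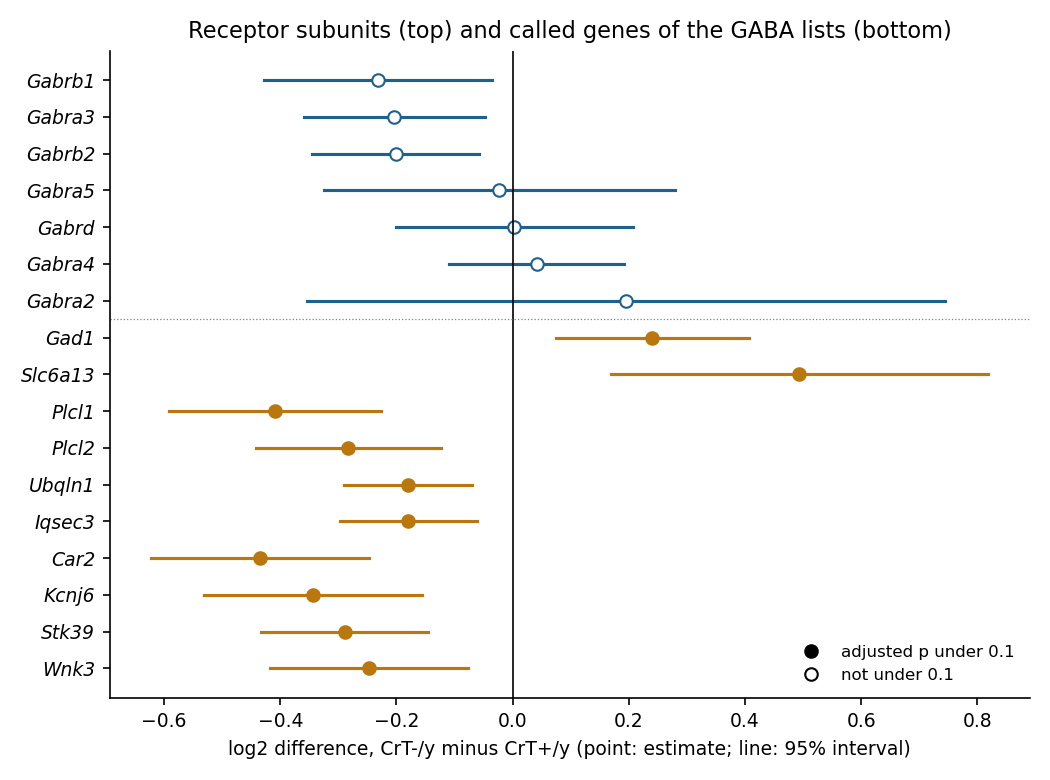
Log2 difference, CrT-/y minus CrT+/y (points), with its 95% interval (lines) for the 7 receptor subunits (blue, top) and the 10 called genes of the GABA lists (orange, bottom). Filled points have an adjusted p under 0.1; the interval excludes 0 for *Gabrb1*, *Gabra3* and *Gabrb2*, whose adjusted p-values were 0.146, 0.119 and 0.104.

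Some markers of cell types passed the threshold as well, and over all genes tested 7.25% fell and 2.90% rose. Of 12 markers of excitatory neurons 3 fell, *Neurod6* and *Nrgn* among them, and none rose, and the summed levels given above overlapped between the genotypes. Of 12 interneuron markers 3 rose (*Gad1*, *Adarb2* and *Dlx1*) and none fell, with sums of 1149 to 1317 FPKM in CrT-/y and 1200 to 1270 FPKM in CrT+/y animals. *Gad1* is in both this list and the GABA list. Of 10 endothelial markers 3 fell (*Flt1*, *Pecam1* and *Ly6c1*), with sums of 118.2 to 138.1 FPKM in CrT-/y and 138.3 to 156.6 FPKM in CrT+/y animals. Of 10 markers each, 1 astrocyte (*Sox9*) and 1 oligodendrocyte marker (*Ermn*) fell and 1 microglial marker (*Trem2*) rose, and their sums overlapped between the genotypes. Only CrT-/y animal 3 reached the CrT+/y range for excitatory markers, and only CrT-/y animal 0 for astrocyte markers. Median log2 differences were -0.13 for excitatory, 0.078 for interneuron and -0.21 for endothelial markers. They were -0.15 for astrocyte, -0.21 for oligodendrocyte and -0.044 for microglial markers, beside -0.0335 for all genes tested. The part of these cell types in the levels of the subunits was not tested.

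Tissue from other regions would carry its own set of subunits. Of 11 hippocampal markers in the table (8 tested) none passed the threshold, with sums of 72.0 to 84.0 FPKM in CrT-/y and 74.6 to 79.4 FPKM in CrT+/y animals. The 11 striatal markers had none past it either, with wide sums in both groups (248.8 to 566.2 and 137.3 to 521.6 FPKM). Their median log2 difference was 0.61, beside -0.018 for the hippocampal markers and -0.0335 for all genes tested. By animal the striatal sums were 485.3, 566.2, 325.7 and 248.8 FPKM in CrT-/y animals 0 to 3 and 137.3, 521.6 and 239.3 FPKM in CrT+/y animals 1 to 3. Whether striatal tissue has a part in the values of *Gabra2* or of *Gad1* was not tested. Of the thalamic markers *Calb2* rose (1 of 11 tested), of the olfactory bulb markers *Cdhr1* rose (1 of 7 tested), and of the markers of ependyma and choroid plexus *Capsl* rose (1 of 8 tested). The median log2 differences of these lists were, in that order, -0.12, 0.58 and 0.17. Over all genes tested, 2.90% rose and 7.25% fell. For the last list the sum was 403.5 FPKM in CrT+/y animal 2 and 13.9 to 61.0 FPKM in the other 6 animals. None of the 7 subunits passed the threshold with or without CrT+/y animal 2, so that count cannot show the part of this animal. Without it the estimate was below 0 for 6 subunits and above 0 for 1, with a median log2 difference of -0.085. No marker was at 0 in all animals.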

How the data were processed

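Cerebral cortex of 4 CrT-/y and 3 CrT+/y males was analysed, 1 library per animal, and groups came from the sample labels. The authors made poly(A) libraries, aligned paired reads to mm10 with the Tuxedo protocol (the submitters' processing notes name Bowtie and Cuffnorm), kept unique reads on known exons or junctions, and deposited FPKM per gene and animal. FPKM are already divided by length and depth, so no count model was used, and the use of strand in counting is not given in the sources used here. Of 24346 symbols, 23310 were found as current and 665 as older names of mouse genes, and positions are from GENCODE on GRCm38.

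Testing covered the 12988 genes whose mean reached 1 FPKM, with limma 3.58.1 (R 4.3.3) on log2(FPKM + 0.1), by genotype, with a variance trend and Benjamini-Hochberg adjustment over all genes tested. The threshold was an adjusted p of 0.1. The pseudocount understates changes of low genes. Shares and ratios within an animal used the exact permutation test over 35 splits (two-sided), and Python 3.11.15 was used. The fit was tested on simulated data. The limma p-values set the difference between genotypes against the spread between these animals. The exact permutation p-values give the share of the 35 splits with a difference at least as large.

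The text names all 7 subunits, *Slc6a8*, in each GABA list the genes past the threshold and at least the 3 of smallest p, and 3 genes of nearest profile for each subunit. The members and lists were chosen with earlier results of these data known. The 12 other subunits are not reported by name here. Alternatives were pseudocounts of 1 and 0.01, other filters on the mean (none, 0.1 and 5 FPKM), upper quartile scaling, quantile normalization, centring on the median, equal summed FPKM (added after the data were seen), a length correction, no variance trend, array weights, a replicate block with and without length correction, and each animal left out.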

Additional observations from a re-analysis of the deposited data

Results flagged for a closer look

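In groups of 4, a value was taken as standing apart when its gap to the nearest animal exceeded 0.829 of the range of the group (Dixon's 95% limit), which chance gives in about 1 of 20 groups. The rule was applied to each subunit, *Slc6a8*, each tested share and ratio and the named genes of the GABA lists. With that many groups, chance alone can give a flag. The share of *Gabra4* among the 4 α subunits stood apart in CrT-/y animals with a gap of 0.848 of the range, because CrT-/y animal 2 was at 24.4% and the other CrT-/y animals at 28.3% to 29.0%. In that animal *Gabra2* had its highest share, 27.5%. The level of *Gabra4* itself did not stand apart there: it was 36.3 FPKM, within the 35.3 to 38.7 FPKM of the other CrT-/y animals. The level of *Slc6a13* stood apart with a gap of 0.917, since CrT-/y animal 3 was at 9.07 FPKM and the other CrT-/y animals began at 6.17 FPKM. Without that animal its log2 difference was 0.36.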

How the results depend on the processing

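The count of the 7 subunits past the threshold was 0 as reported, 1 among genes of at least 5 FPKM and 1 with array weights. It was 0 to 2 when 1 animal was left out. Over all genes, 1052 were lower and 326 higher at the filter of 5 FPKM, and 1295 and 602 with array weights. The calls in the GABA lists, with the other subunits counted along, were 10 as reported. They were 6 without a filter, 5 without a variance trend and 3 with the replicate block. With the block and the length correction there was 1, and there were 0 to 19 when 1 animal was left out. The estimate of *Gabra5* (-0.023) changed sign under quantile normalization (0.035), upper quartile scaling (0.039), median centring (0.014), equal summed FPKM (0.017), the length correction (0.012), array weights (0.057) and the block with length correction (0.016), and was -0.13 to 0.093 with 1 animal left out. That of *Gabrd* (0.0030) changed sign with array weights (-0.011), the replicate block (-0.048) and the block with length correction (-0.027), and was -0.048 to 0.081 with 1 animal left out. With 1 animal left out, *Gabra2* was at -1.27e-06 to 0.37 and *Gabra4* at -0.014 to 0.10. The log2 ratio of *Gabrb1* to *Gabrb2* differed by 0.0018 between genotypes under the length correction, against -0.032 as reported. The cause of these changes was not tested. Over all genes, 377 were higher and 941 lower as reported, but 741 higher and 463 lower under upper quartile scaling and 528 and 555 under quantile normalization. The calls over all genes were 53 lower and 11 higher without CrT-/y animal 1, and 2394 lower and 1342 higher without CrT+/y animal 3. They were 410 lower and 166 higher with the replicate block. Animals with the same number did not deviate together (correlations of -0.078, 0.046 and -0.051). This does not settle whether the numbers pair the animals, since the labels give no litter. FPKM give no read counts, so counting error could not be given.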
